A study of Mus musculus with 12 samples.

Results

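The 3 SB+Dox arrays and 3 SB arrays analysed here, 6 of the 12 of the series, address what doxycycline-induced myogenin changed in differentiating muscle cells while SB203580 inhibited p38 MAP kinase. All 12 arrays came from C2i-Myog, a stable derivative of the mouse myoblast line C2C12 that carries a doxycycline-inducible cDNA for Flag-tagged mouse Myog. After growth in 10% FCS every group spent 48 h in differentiation medium, which held insulin and transferrin at 10 µg/mL each and 1% horse serum. The SB group received 10 µM SB203580 from the start of differentiation, and the SB+Dox group received 10 µM SB203580 and 0.2 µg/mL doxycycline. The control group received neither agent, and the Dox group doxycycline alone at the same dose. The series has 1 stable line and no group of cells that lack the transgene but received doxycycline, so the effect of the drug and that of the induced protein cannot be told apart. The genes are all transcript clusters with exactly 1 gene symbol, 21789 of 35557 on the array, and 19938 genes when each is represented by its brightest cluster.

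Myogenin is a basic helix-loop-helix transcription factor that binds E-boxes and, with MyoD and MEF2 proteins, switches on the genes of the sarcomere, the calcium release apparatus and the neuromuscular junction as myoblasts leave the cell cycle and fuse. The p38 alpha and beta kinases act in the same programme: they phosphorylate MEF2 and E-protein partners, recruit chromatin remodelling enzymes to muscle promoters, and are blocked by the pyridinyl imidazole SB203580. Myogenin itself is among the genes that depend on p38, so an inhibited culture makes less of it, and an inducible copy asks which later genes respond when it is supplied without the kinase.

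The values are log2 signals of the authors' RMA table, and every level below is on that scale, with replicates 1, 2 and 3 of a group given in that order. Each p was adjusted over 21789 clusters by the Benjamini-Hochberg method after a limma fit on all 12 arrays, and a gene that passed 0.05 is said to have risen or fallen. A change is the SB+Dox mean minus the SB mean in log2 units, and an array is named by its group and replicate number, as in SB 3. Replicate arrays correlated at 0.989 to 0.994 within SB and 0.994 to 0.996 within SB+Dox. SB 3 stood apart: on the leading principal component of these 6 arrays, which held 53.6% of the variance, SB 1 and SB 2 lay at -29.2 and -22.1, SB 3 at -2.05 and the SB+Dox arrays between 9.91 and 29.6. Values without SB 3 are therefore given beside the main lists and where they change a call. Without it the log2 changes of Sorbs2, Myl4, Tnnc1 and Casq2, genes of muscle contraction and calcium storage, were 2.67, 2.55, 2.34 and 2.69, and those of Ccna2 and Islr -1.25 and -1.39 (adjusted p up to 0.002). Whether replicates were grown as separate cultures is not in the labels, so each p measures a spread between samples that may be technical. In such whole-culture RNA, fewer cells of a kind and less RNA per cell cannot be told apart.

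Myog itself was read first, since the labels describe SB cells as lacking myogenin and SB+Dox cells as expressing it. Myog measured 6.93, 7.96 and 8.21 in SB and 8.10, 8.23 and 8.68 in SB+Dox. The ranges overlapped, because SB 3 lay above SB+Dox 1, and the difference did not pass the test (log2 change 0.64, SE 0.25, adjusted p = 0.157). It passed without SB 3 (adjusted p = 0.0311), and missed the threshold when the replicate number was a block (adjusted p = 0.0676). The control arrays measured 9.66, 10.18 and 9.89 and the Dox arrays 10.39, 10.30 and 10.40, so every SB+Dox array lay below every control array. Where the probes lie on the cDNA of the transgene was not known here, so transcripts of the endogenous gene and of the transgene cannot be told apart. Of the 10 measured myogenic factors and MEF2 partners, 0 rose and 1 fell: the E-protein gene Tcf4 measured 8.29, 8.38 and 8.67 in SB and 7.98, 8.03 and 8.05 in SB+Dox (log2 change -0.42, SE 0.12, adjusted p = 0.0483). The Tcf4 call was lost with the replicate block (adjusted p = 0.0543), after median centring of each array (adjusted p = 0.11) and without any 1 of control 1, control 2, control 3, Dox 2, SB 2, SB 3, SB+Dox 1, SB+Dox 2 and SB+Dox 3 (adjusted p = 0.0555 to 0.124). Myod1, the gene of the determination factor MyoD, measured 9.45, 9.95 and 9.79 in SB and 9.18, 9.40 and 9.15 in SB+Dox, and all 3 SB+Dox arrays lay below the SB arrays without passing the test (log2 change -0.49, SE 0.15, adjusted p = 0.0653). With the replicate block Myod1 passed (adjusted p = 0.0174), as it did after quantile normalisation (adjusted p = 0.0162). Changes of Myf5 and Myf6, the other myogenic factors, were -0.34 and 0.12 (adjusted p = 0.191 and 0.542), and those of the targets of the inhibitor, Mapk14 (p38 alpha) and Mapk11 (p38 beta), 0.16 and 0.22 (adjusted p = 0.355 and 0.15).

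**Figure D1:**
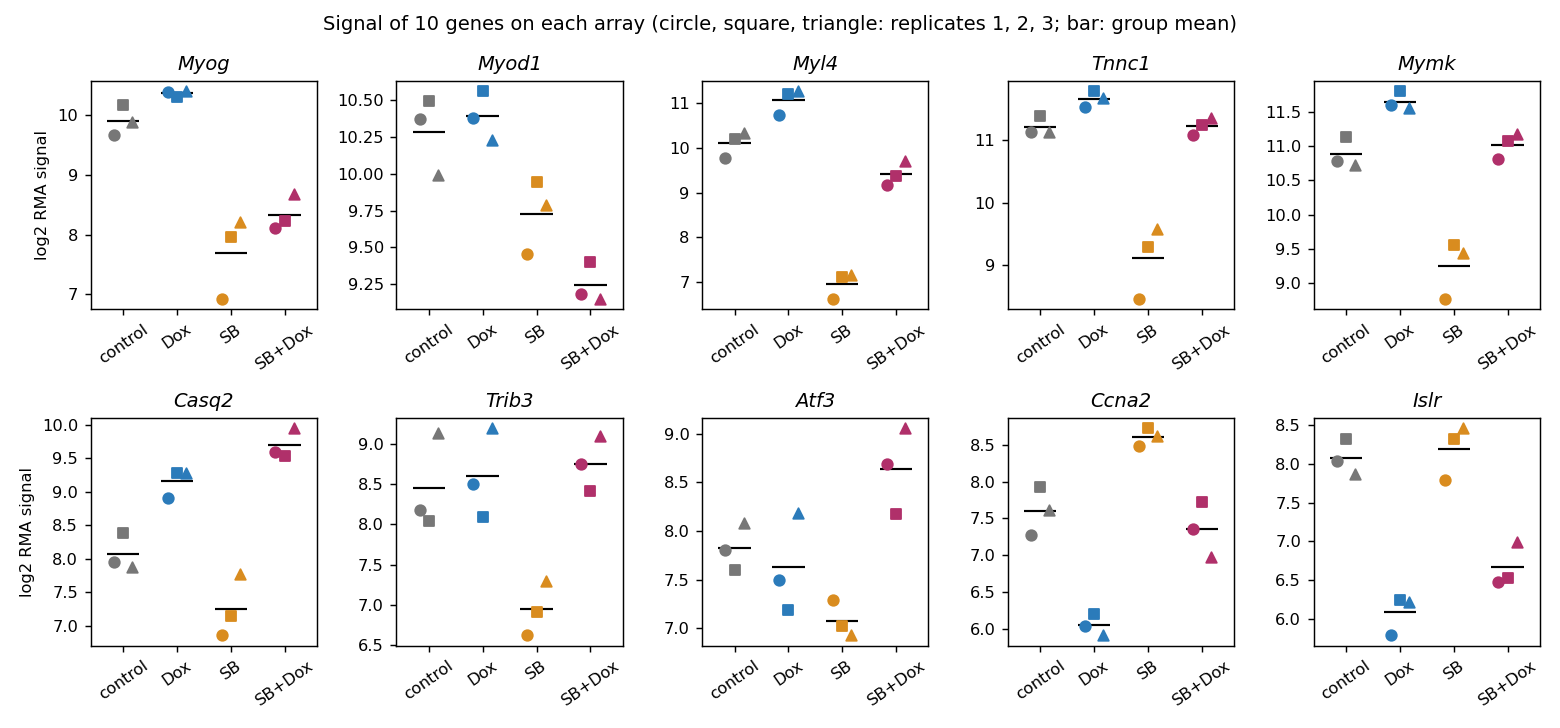
Log2 RMA signal (vertical axis) of 10 genes on each of the 12 arrays by group (horizontal axis), with circles, squares and triangles for replicates 1, 2 and 3 and a bar at each group mean. SB and SB+Dox overlap for Myog, where SB 3 at 8.21 exceeds SB+Dox 1 at 8.10, and do not overlap for Myl4, Tnnc1, Mymk, Casq2, Trib3, Atf3, Ccna2 or Islr. All of these but Atf3 were chosen among genes without overlap.

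Of 21789 clusters 1550 passed in SB+Dox against SB, 7.11% of those tested, with 959 higher and 591 lower. By gene, 905 rose and 561 fell, 4.54% and 2.81% of 19938, which is the background for every list count of the main fit below. Counts from other fits have other backgrounds: 6.63% rose and 5.10% fell without SB 3, and 5.67% and 3.68% with the replicate block. The lists were chosen with earlier results of these data known, so their shares are descriptions. The median change over all genes was -0.05. Groups did not overlap, with all 3 SB+Dox arrays above or below all 3 SB arrays, for 13% of genes upward and 12.5% downward. The split of clusters depended on the scaling: 851 rose and 800 fell after quantile normalisation, and 1302 rose and 415 fell with each array centred on its median. Individual arrays moved the total: 724 clusters passed without SB+Dox 3, 926 without SB 2 and 1015 without SB 1. The total was 1124 without SB+Dox 2, 1197 without SB+Dox 1 and 2521 without SB 3. List counts from those fits are to be read beside these totals. Genes that rose were mostly bright ones. Of the 25% of genes with the highest mean signal 600 rose and 172 fell, and of the 25% with the lowest 5 rose and 33 fell.

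**Figure D2:**
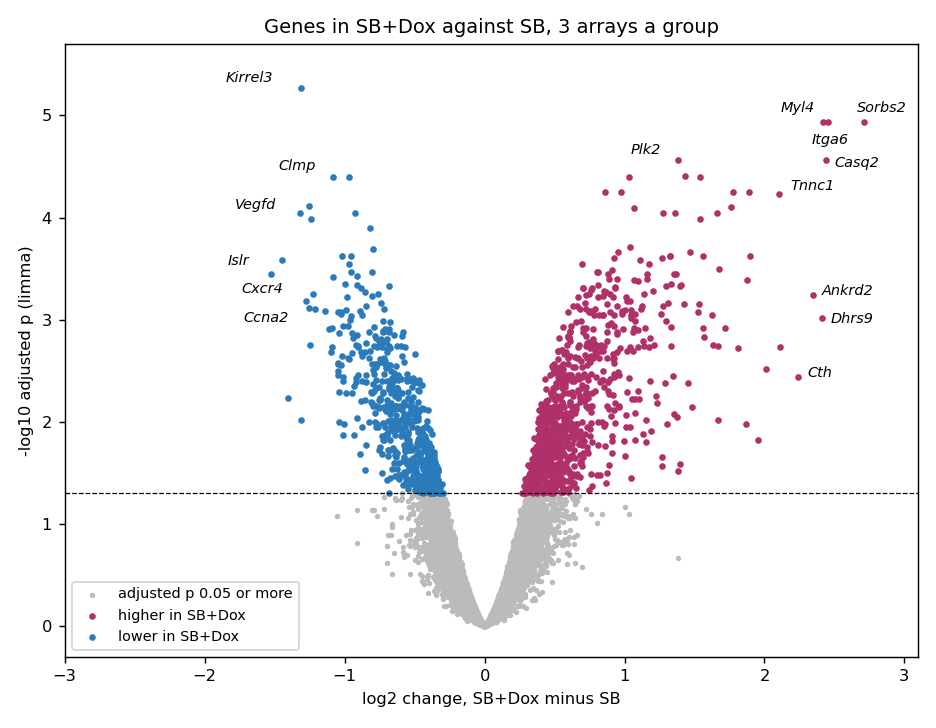
Log2 change in SB+Dox against SB (horizontal axis) and -log10 of the limma adjusted p (vertical axis) for 19938 genes, 3 arrays a group, with the dashed line at 0.05. The 905 genes above the line on the right reach a change of 2.71 for Sorbs2, and the 561 on the left reach -1.52 for Islr.

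**Figure D3:**
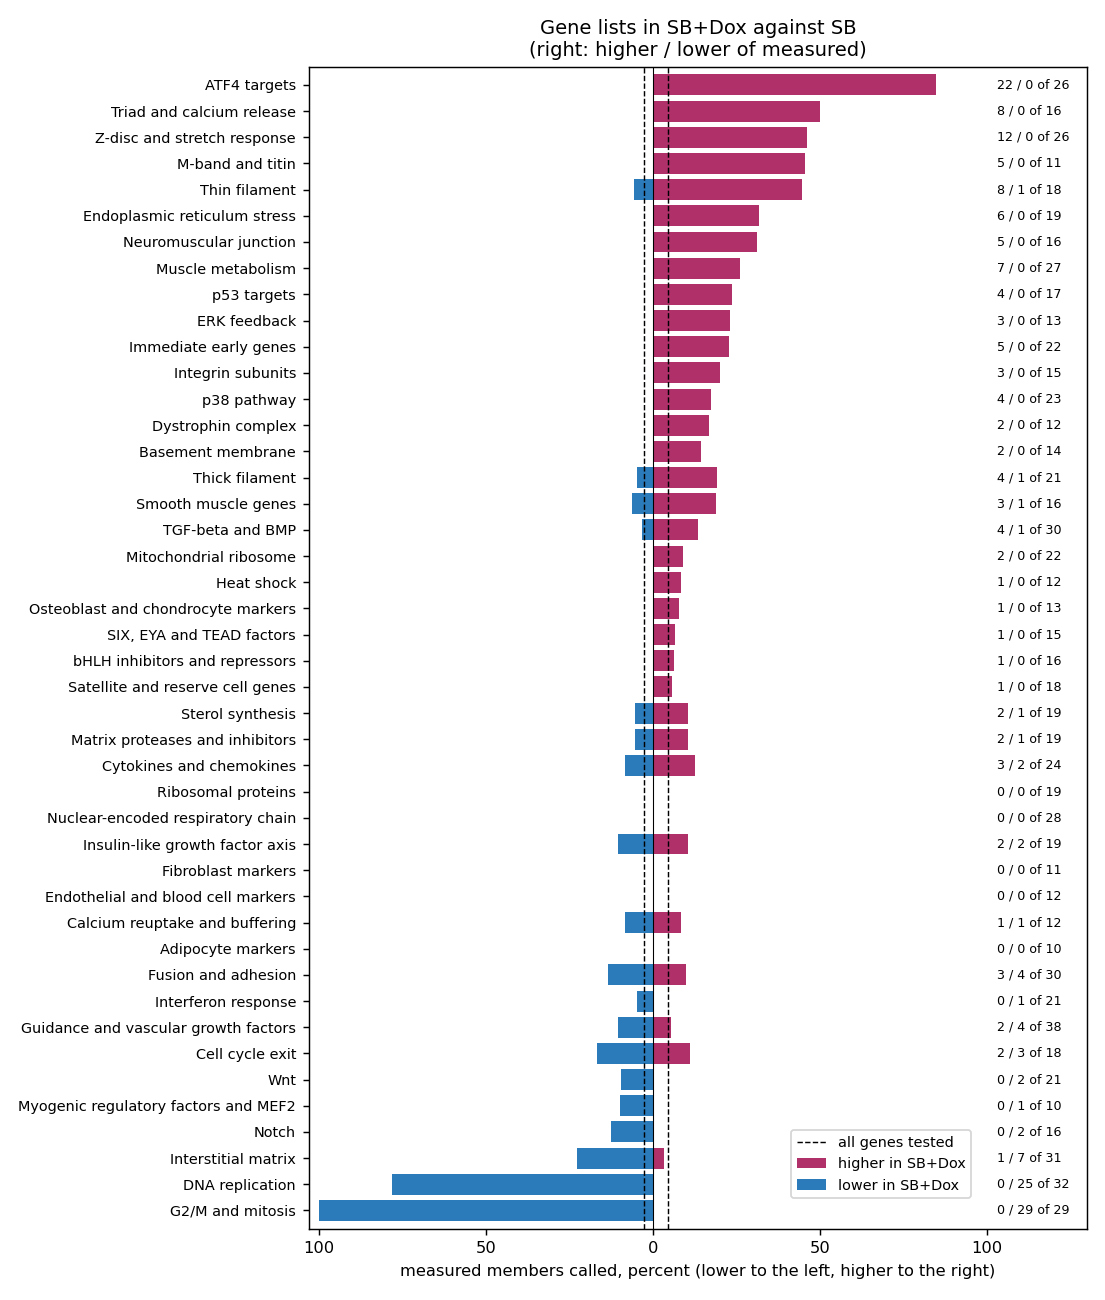
Share of the measured members of 44 gene lists that rose (right) or fell (left) in SB+Dox against SB, in percent, with the counts at the right edge and dashed lines at the shares of all genes, 4.54% and 2.81%. ATF4 targets stand at 22 of 26 raised, and the mitosis and DNA replication lists at 29 of 29 and 25 of 32 lowered.

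Contractile filament genes rose in part. In the thin filament list, 8 of 18 genes rose and 1 fell, with a median change of 0.54, and in the thick filament list 4 of 21 rose and 1 fell, with a median of 0.02. Without SB 3 the raised counts were 11 and 6. The raised thin filament count was 6 without SB 2 or SB+Dox 3 and 7 without SB 1 or SB+Dox 2. Over the fits that left out 1 array, 4 to 6 thick filament genes rose. The fallen thin filament gene was lost without SB 1, SB 2, SB+Dox 1 or SB+Dox 3, and 2 thick filament genes fell with the replicate block or without SB+Dox 3. Tnnc1, the slow and cardiac troponin C that senses calcium, measured 8.47, 9.30 and 9.59 in SB and 11.08, 11.24 and 11.36 in SB+Dox. The groups did not overlap, and Tnnc1 rose 4.31-fold (log2 change 2.11, SE 0.20, adjusted p = 5.83e-05). Tnni2, the fast troponin I, measured 7.35, 8.01 and 8.22 in SB and 9.41, 9.49 and 9.67 in SB+Dox, again without overlap, and rose 3.17-fold (log2 change 1.66, SE 0.17, adjusted p = 9.01e-05). Tnni1 and Tnnt2, slow troponin I and cardiac troponin T, rose 2.5-fold and 2.46-fold (adjusted p = 0.000239 and 0.00104), and Lmod2, a leiomodin that nucleates actin, 2.59-fold (adjusted p = 0.000354). SB 1 was the lowest array of all 6 for each troponin gene named here. Tpm3, a tropomyosin used widely outside muscle too, fell by 0.40 (adjusted p = 0.0213), a call lost without any 1 of SB 1, SB 2, SB+Dox 1 and SB+Dox 3 (adjusted p = 0.0553 to 0.131) and not shared by its other clusters.

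Among myosin genes Myl4, the essential light chain of embryonic and atrial muscle, measured 6.63, 7.10 and 7.16 in SB and 9.16, 9.38 and 9.71 in SB+Dox. Its lowest SB+Dox array stood 2.0 above its highest SB array, and the gene rose 5.47-fold (log2 change 2.45, SE 0.19, adjusted p = 1.17e-05). Embryonic heavy chain Myh3 measured 8.64, 9.13 and 9.45 in SB and 10.50, 10.80 and 10.81 in SB+Dox and rose 3.1-fold (log2 change 1.63, SE 0.26, adjusted p = 0.00177). The fast regulatory light chain gene Mylpf and Mybph, of a myosin-binding protein, rose 2.42-fold and 2.17-fold (adjusted p = 0.000738 and 0.00079). Mybpc1, slow myosin-binding protein C, went the other way and measured 5.39, 5.33 and 6.15 in SB and 4.77, 4.62 and 4.85 in SB+Dox. All its SB+Dox arrays were below all its SB arrays (log2 change -0.88, SE 0.19, adjusted p = 0.0111).

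The Z-disc list, which includes stretch-responsive ankyrin repeat proteins, had 12 of 26 genes higher and 0 lower, a median change of 0.44. Leaving out 1 array gave 8 to 13 higher, with 8 without SB 1 or SB+Dox 3. Sorbs2, an adaptor of the Z-disc, measured 3.87, 4.20 and 3.90 in SB and 6.36, 6.79 and 6.97 in SB+Dox and rose 6.56-fold (log2 change 2.71, SE 0.21, adjusted p = 1.17e-05), with a gap of 2.15 between the groups. Myoz2, a calsarcin that ties calcineurin to alpha-actinin, measured 4.49, 5.29 and 5.49 in SB and 6.83, 7.01 and 7.76 in SB+Dox and rose 4.33-fold (log2 change 2.11, SE 0.35, adjusted p = 0.00186). Ankrd2 measured 5.68, 5.55 and 5.34 in SB and 7.37, 7.98 and 8.26 in SB+Dox. SB 3 was its lowest array and SB+Dox 3 its highest, and it rose 5.09-fold (log2 change 2.35, SE 0.31, adjusted p = 0.000567). Xirp2, an actin-binding repeat protein, measured 4.31, 4.29 and 4.09 in SB and 5.46, 5.62 and 5.88 in SB+Dox and rose 2.68-fold (log2 change 1.42, SE 0.20, adjusted p = 0.000697). Genes whose changes did not pass included desmin (Des, 0.31), alpha-actinin 2 (Actn2, 0.00) and telethonin (Tcap, -0.19).

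Of the M-band and titin list 5 of 11 rose and 0 fell, or 3 without SB+Dox 3. Myom2, the M-protein that crosslinks thick filaments, measured 7.59, 8.14 and 8.58 in SB and 9.92, 9.89 and 10.17 in SB+Dox and rose 3.71-fold (log2 change 1.89, SE 0.18, adjusted p = 5.57e-05). Ttn, the giant elastic protein titin, measured 8.07, 8.19 and 9.05 in SB and 9.36, 9.73 and 9.77 in SB+Dox, with SB 3 nearest to the SB+Dox arrays, and rose 2.27-fold (log2 change 1.18, SE 0.22, adjusted p = 0.00399). Myomesin 1 (Myom1) measured 5.69, 6.36 and 6.94 in SB and 7.32, 7.29 and 7.84 in SB+Dox (log2 change 1.15, SE 0.24, adjusted p = 0.00948). Its call was lost without SB+Dox 3 (adjusted p = 0.0584). Trim54, a ligase of titin's ubiquitin-regulated region, rose 1.84-fold (adjusted p = 0.00131).

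The E-box CAGCTG, a form of CANNTG that reads the same on both strands, is the sequence myogenic factors are known to prefer, and 3 of the 20 most raised genes hold it in the RefSeq window from 250 bases before to 50 after the annotated start. These windows (build GRCm38.p6, gene strand, E-box in capitals) are shown because they belong to the largest changes of the comparison. Sorbs2 lies at chr8:45507538-45507837 on the plus strand with the site at position -9 from the start, Myoz2 at chr3:123034938-123035237 on the minus strand with the site at -12, and Tmem182, a membrane protein gene of muscle, at chr1:40805351-40805650 on the plus strand with the site at -41.
Sorbs2: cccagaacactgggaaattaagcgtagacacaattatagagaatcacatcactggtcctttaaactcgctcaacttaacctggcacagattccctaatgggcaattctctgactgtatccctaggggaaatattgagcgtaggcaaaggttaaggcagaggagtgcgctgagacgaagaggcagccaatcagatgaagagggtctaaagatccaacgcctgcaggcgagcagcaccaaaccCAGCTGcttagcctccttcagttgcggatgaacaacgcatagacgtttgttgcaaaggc
Myoz2: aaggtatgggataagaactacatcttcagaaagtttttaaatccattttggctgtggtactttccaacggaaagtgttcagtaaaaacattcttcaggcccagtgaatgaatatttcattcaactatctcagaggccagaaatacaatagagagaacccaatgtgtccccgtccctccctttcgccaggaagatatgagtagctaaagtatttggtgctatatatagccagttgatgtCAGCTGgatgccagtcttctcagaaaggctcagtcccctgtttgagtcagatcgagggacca
Tmem182: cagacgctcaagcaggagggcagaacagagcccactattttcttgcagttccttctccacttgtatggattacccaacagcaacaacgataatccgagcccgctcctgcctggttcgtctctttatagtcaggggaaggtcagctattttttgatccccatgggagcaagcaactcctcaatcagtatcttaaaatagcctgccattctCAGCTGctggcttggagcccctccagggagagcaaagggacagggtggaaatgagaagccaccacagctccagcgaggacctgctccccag
Windows were at hand for 15563 of the 19938 genes, and 15.9% of them held CAGCTG. Among raised genes the share was 17%, among genes raised at least 2-fold 19.1%, and among lowered genes 16.2%. Of the raised sarcomere genes with a window 9 of 24 held it, which is 37.5%. These shares describe letters in a window and were not tested.

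Genes of calcium release rose in part: 8 of 16 triad genes were higher and 0 lower, a median change of 0.44, though 4 passed without SB 1, without SB 2 or without SB+Dox 3, 5 without SB+Dox 2 and 10 without SB 3. Casq2, the calsequestrin that stores calcium in the sarcoplasmic reticulum of heart and slow fibres, measured 6.86, 7.14 and 7.77 in SB and 9.59, 9.54 and 9.95 in SB+Dox. Even SB 3, the highest SB array, lay 1.77 below the lowest SB+Dox array, and the fold was 5.41 (log2 change 2.44, SE 0.20, adjusted p = 2.71e-05). Cacnb1, the beta subunit of the L-type channel of muscle, measured 6.46, 6.64 and 6.92 in SB and 7.88, 8.01 and 8.22 in SB+Dox and rose 2.57-fold (log2 change 1.36, SE 0.14, adjusted p = 8.92e-05). Jph2, a junctophilin that holds the tubule near the store, measured 6.57, 7.02 and 7.02 in SB and 7.83, 8.15 and 8.24 in SB+Dox and rose 2.3-fold (log2 change 1.2, SE 0.16, adjusted p = 0.000517), with both of its clusters called. Cacna1s, the pore of the channel, measured 5.33, 5.53 and 5.46 in SB and 5.93, 6.14 and 6.87 in SB+Dox, with SB+Dox 3 well above the other arrays, and rose 1.83-fold (adjusted p = 0.0314), lost without any 1 of SB 1, SB 2, SB+Dox 2 and SB+Dox 3 (adjusted p = 0.05 to 0.156). Ryr1, the release channel, changed by 0.59 without passing (adjusted p = 0.141), and skeletal calsequestrin Casq1 by 0.25 (adjusted p = 0.562).

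In the list of calcium reuptake and buffering 1 of 12 genes rose and 1 fell, with 2 higher after quantile normalisation or centring and 2 lower without SB 3. Hrc, a calcium-binding protein of the reticulum lumen, measured 6.30, 6.68 and 6.85 in SB and 7.39, 7.48 and 7.75 in SB+Dox (log2 change 0.92, SE 0.16, adjusted p = 0.00239). The fallen gene was Mrln, which encodes myoregulin, a micropeptide that restrains the SERCA pump. It measured 5.80, 6.0 and 6.37 in SB and 5.5, 5.52 and 5.56 in SB+Dox (log2 change -0.53, SE 0.12, adjusted p = 0.017), and its call was lost after median centring (adjusted p = 0.0513) and without SB+Dox 1 (adjusted p = 0.0551), SB+Dox 2 (adjusted p = 0.0536) or SB+Dox 3 (adjusted p = 0.0557).

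At the neuromuscular junction 5 of 16 genes rose and 0 fell, or 3 without SB+Dox 3. Of the acetylcholine receptor subunits, Chrnb1 measured 7.5, 8.0 and 8.16 in SB and 8.62, 8.86 and 9.09 in SB+Dox (log2 change 0.97, SE 0.16, adjusted p = 0.0019) and the embryonic subunit Chrng rose 1.89-fold (log2 change 0.92, SE 0.16, adjusted p = 0.00241). Neither gene overlapped between the groups, and SB 1 was the lowest array for both. Chrnd rose 1.58-fold (adjusted p = 0.0105), a call lost without SB+Dox 3 (adjusted p = 0.0673), and Chrna1 changed by 0.30 without passing (adjusted p = 0.0591). The adhesion molecule Ncam1 rose 1.84-fold (adjusted p = 0.00162).

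Fusion and adhesion genes were split, with 3 of 30 higher and 4 lower. Leaving out control 3, the replicate block or centring each array on its median gave 5 higher, and 2 were lower without SB 2, without SB+Dox 1, without SB+Dox 3 or after centring. Mymk, myomaker, the membrane protein that fusion requires, measured 8.78, 9.56 and 9.44 in SB and 10.81, 11.07 and 11.17 in SB+Dox, without overlap, and rose 3.39-fold (log2 change 1.76, SE 0.18, adjusted p = 7.93e-05). Its partner Mymx, myomixer, changed by 0.34 (adjusted p = 0.0841). Dysferlin (Dysf), which repairs the sarcolemma, measured 5.48, 5.58 and 5.29 in SB and 6.48, 6.80 and 7.06 in SB+Dox and rose 2.51-fold (log2 change 1.33, SE 0.15, adjusted p = 0.000235). Kirrel3, an immunoglobulin protein of the nephrin family, measured 6.85, 6.87 and 6.97 in SB and 5.66, 5.54 and 5.56 in SB+Dox. Its arrays spanned 0.12 within SB and 0.12 within SB+Dox, and the gene had the smallest adjusted p of the 19938 (log2 change -1.31, SE 0.09, adjusted p = 5.37e-06). Its relative Kirrel measured 7.90, 7.82 and 7.79 in SB and 7.32, 7.34 and 7.36 in SB+Dox (log2 change -0.50, SE 0.09, adjusted p = 0.00411).

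Integrins and the dystrophin complex, which fix the fibre to laminin, had few calls. Of 15 integrin subunits 3 were higher and 0 lower, led by Itga6, a laminin receptor chain, at 6.76, 6.95 and 7.11 in SB and 9.12, 9.35 and 9.59 in SB+Dox (log2 change 2.41, SE 0.18, adjusted p = 1.17e-05). Itga7, the principal laminin receptor chain of muscle, measured 10.12, 10.20 and 10.48 in SB and 10.75, 10.80 and 10.95 in SB+Dox and rose 1.48-fold (log2 change 0.56, SE 0.11, adjusted p = 0.0071). Of 12 genes of the dystrophin complex 2 rose. The syntrophin gene Sntb1 measured 6.25, 6.79 and 7.16 in SB and 7.52, 8.04 and 7.94 in SB+Dox (log2 change 1.10, SE 0.22, adjusted p = 0.00599) and dystrobrevin (Dtna) 7.14, 6.95 and 7.14 in SB and 7.68, 7.76 and 7.71 in SB+Dox (log2 change 0.63, SE 0.12, adjusted p = 0.00378). Type IV collagen genes Col4a1 and Col4a2 made 2 of 14 basement membrane genes higher, a count that was 0 without SB 1, SB 2, SB+Dox 2 or SB+Dox 3 and 4 without SB 3.

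Muscle energy genes had 7 of 27 higher and 0 lower, and leaving out 1 array gave 5 to 8 higher and 0 or 1 lower. Cox6a2, the heart and skeletal muscle form of a cytochrome oxidase subunit, measured 6.52, 6.89 and 6.78 in SB and 8.5, 8.32 and 8.69 in SB+Dox and rose 3.42-fold (log2 change 1.77, SE 0.17, adjusted p = 5.57e-05). The cytosolic creatine kinase gene of brain and immature muscle, Ckb, measured 7.03, 7.71 and 7.21 in SB and 8.62, 8.91 and 8.98 in SB+Dox and rose 2.88-fold (log2 change 1.52, SE 0.22, adjusted p = 0.000839). Adssl1, the muscle enzyme of the purine nucleotide cycle, measured 7.61, 7.56 and 7.60 in SB and 8.67, 8.53 and 8.78 in SB+Dox, with spans of 0.05 and 0.25 within the groups, and rose 2.1-fold (log2 change 1.07, SE 0.11, adjusted p = 8.07e-05). Hexokinase 2 (Hk2) rose 2.31-fold (adjusted p = 0.00176). The muscle creatine kinase gene Ckm measured 7.76, 8.57 and 8.99 in SB and 9.28, 9.24 and 9.81 in SB+Dox. SB 3 came within 0.24 of SB+Dox 2, and the call (log2 change 1.00, SE 0.25, adjusted p = 0.0214) was lost without SB 1 (adjusted p = 0.0774), SB 2 (adjusted p = 0.0529) or SB+Dox 3 (adjusted p = 0.118), and under robust moderation of the variances (adjusted p = 0.0513). Of 28 nuclear-encoded subunits of the respiratory chain 0 passed in limma, with 6 higher and 0 lower at an unadjusted p under 0.05, and the largest change was 0.31 for Ndufs1 (adjusted p = 0.176), which passed without SB 3 (adjusted p = 0.0376).

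The largest share of any list that rose was that of ATF4 targets, genes for amino acid uptake and synthesis that the transcription factor ATF4 drives when amino acids are short or eIF2 alpha is phosphorylated. This list, like the others, was chosen with earlier results of these data known, so its share and rank are descriptions. Of 26 measured members 22 rose and 0 fell, with a median change of 1.13 against -0.05 over all genes. The count was 22 without any 1 of the 12 arrays. The list mean measured 7.25, 7.40 and 7.56 in SB and 8.46, 8.31 and 8.69 in SB+Dox, so the lowest SB+Dox array stood 0.75 above the highest SB array. Cth, which makes cysteine from cystathionine, measured 4.72, 5.21 and 5.74 in SB and 7.26, 7.34 and 7.80 in SB+Dox and rose 4.73-fold (log2 change 2.24, SE 0.40, adjusted p = 0.0036). Trib3, a pseudokinase that restrains ATF4, measured 6.62, 6.91 and 7.30 in SB and 8.75, 8.42 and 9.10 in SB+Dox and rose 3.51-fold (log2 change 1.81, SE 0.30, adjusted p = 0.0019). Slc7a11, the cystine transporter, measured 4.69, 4.92 and 5.06 in SB and 6.52, 6.31 and 7.0 in SB+Dox and rose 3.29-fold (log2 change 1.72, SE 0.26, adjusted p = 0.0012). No gene of these overlapped between the groups. The glycine transporter gene Slc6a9 rose 2.94-fold and Atf3, a stress-induced factor of the ATF family, 2.96-fold (adjusted p = 0.000239 and 0.0012). Chosen after their values were seen, asparagine synthetase (Asns) measured 9.62, 9.75 and 10.12 in SB and 11.09, 11.01 and 11.19 in SB+Dox, the glutathione-degrading enzyme gene Chac1 7.08, 7.36 and 7.56 in SB and 8.86, 8.55 and 8.90 in SB+Dox, and Atf4 itself 8.01, 8.09 and 8.15 in SB and 8.80, 8.63 and 9.09 in SB+Dox. Folds of Asns, Chac1 and Atf4 were 2.41, 2.7 and 1.69 (adjusted p = 0.000249, 3.95e-05 and 0.00188). The members that missed the threshold were Atf5, Cebpb, Ddit4 and Vldlr, with changes of 0.40, 0.41, -0.07 and -0.05.

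Replicate 3 was the highest array of every group for Trib3, which measured 8.18, 8.04 and 9.14 in control and 8.5, 8.09 and 9.20 in Dox, and for Cth, at 6.69, 6.61 and 8.12 and 7.45, 6.62 and 8.25. The change of Trib3 had an adjusted p of 1.34e-05 with the replicate block and 0.00212 without SB 3.

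The element TGATGNAA, by which ATF4 and C/EBP dimers are known to act, was searched on both strands. It stood in 7 of the 20 raised ATF4 targets that had a window, 35%, against 3.17% of all windows and 3.97% of those of raised genes. The list's most changed members that hold it are Trib3 (chr2:152344011-152344310, minus strand, site at position 14) and Slc7a11 (chr3:50443564-50443863, minus strand, sites at -66 and -47), printed with the element in capitals, read on the gene strand or as its reverse complement.
Trib3: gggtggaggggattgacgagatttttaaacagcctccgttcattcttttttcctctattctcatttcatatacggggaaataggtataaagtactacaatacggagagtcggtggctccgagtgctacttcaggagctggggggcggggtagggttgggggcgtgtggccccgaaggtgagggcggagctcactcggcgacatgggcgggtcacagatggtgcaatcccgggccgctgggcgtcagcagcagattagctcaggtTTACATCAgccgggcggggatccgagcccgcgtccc
Slc7a11: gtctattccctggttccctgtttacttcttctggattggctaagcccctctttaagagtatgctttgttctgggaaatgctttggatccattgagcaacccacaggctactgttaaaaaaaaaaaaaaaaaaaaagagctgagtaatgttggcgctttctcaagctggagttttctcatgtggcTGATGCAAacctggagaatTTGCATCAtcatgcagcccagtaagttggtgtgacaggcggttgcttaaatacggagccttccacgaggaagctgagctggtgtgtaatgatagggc
Both windows were chosen after the changes were seen, and a match of letters is a description.

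Endoplasmic reticulum stress genes, which share inducers with ATF4, had 6 of 19 higher and 0 lower, or 3 without SB+Dox 3. Herpud1, which serves degradation at the reticulum membrane, measured 8.17, 8.5 and 8.64 in SB and 9.58, 9.27 and 9.66 in SB+Dox (log2 change 1.07, SE 0.13, adjusted p = 0.000413), and Sel1l, an adaptor of the same pathway, 7.30, 7.49 and 7.83 in SB and 8.59, 8.47 and 8.79 in SB+Dox (log2 change 1.08, SE 0.16, adjusted p = 0.000878). Neither overlapped. The chaperone gene Hspa5 rose 1.62-fold (adjusted p = 0.01), lost without SB+Dox 3 (adjusted p = 0.0609). Of 17 p53 targets 4 rose and 0 fell. The Polo-like kinase genes Plk2 and Plk3, of growth restraint and stress, rose: Plk2 measured 8.49, 8.40 and 8.59 in SB and 9.90, 9.79 and 9.92 in SB+Dox (log2 change 1.38, SE 0.12, adjusted p = 2.71e-05), with a gap of 1.2, and Plk3 5.83, 5.69 and 5.88 in SB and 7.17, 7.04 and 8.07 in SB+Dox (log2 change 1.63, SE 0.24, adjusted p = 0.000908). Of the death receptors, Eda2r rose 1.97-fold and Tnfrsf10b 1.36-fold (adjusted p = 0.000885 and 0.0098). In the heat shock list 1 of 12 rose, or 0 without SB 1 or SB+Dox 2, and 2 without control 3 or Dox 2, with the replicate block or after centring.

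Cell cycle genes fell. All 29 measured genes of G2/M and mitosis were lower, with a median change of -0.77, and 25 of 32 DNA replication genes were lower, with a median of -0.74. Leaving out 1 array at a time gave 21 to 29 and 18 to 27. In 28 of the 29 mitotic genes every SB+Dox array lay below every SB array. Cyclin A2 (Ccna2) measured 8.48, 8.72 and 8.62 in SB and 7.35, 7.72 and 6.98 in SB+Dox and was 2.39-fold lower (log2 change -1.26, SE 0.18, adjusted p = 0.000762). SB+Dox 3 was its lowest array and SB+Dox 2 its highest of that group. The spindle motor gene Kif11 measured 6.52, 6.77 and 6.69 in SB and 5.51, 5.86 and 5.31 in SB+Dox (log2 change -1.10, SE 0.18, adjusted p = 0.00208), and Plk1, the central mitotic kinase, 7.82, 8.24 and 7.90 in SB and 7.08, 7.27 and 6.48 in SB+Dox (log2 change -1.04, SE 0.20, adjusted p = 0.00507). In both SB+Dox 3 was again the lowest. Top2a, the DNA topoisomerase of mitotic chromosomes, measured 7.71, 7.61 and 8.10 in SB and 6.69, 7.02 and 6.57 in SB+Dox (log2 change -1.05, SE 0.18, adjusted p = 0.00317), while its other cluster changed by 0.29 without passing (adjusted p = 0.478). Bub1, a checkpoint kinase, fell by 1.00 (adjusted p = 0.0105), lost without SB+Dox 3 (adjusted p = 0.0651).

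Among replication genes Mcm3, a subunit of the replicative helicase, measured 8.36, 8.34 and 8.0 in SB and 7.12, 7.30 and 6.64 in SB+Dox (log2 change -1.21, SE 0.17, adjusted p = 0.00079), and Mcm5 of the same complex 7.90, 7.84 and 7.44 in SB and 6.78, 6.80 and 6.27 in SB+Dox (log2 change -1.11, SE 0.17, adjusted p = 0.00123). Uhrf1, which maintains DNA methylation at the fork, measured 7.76, 7.82 and 7.35 in SB and 6.54, 6.83 and 6.15 in SB+Dox (log2 change -1.14, SE 0.16, adjusted p = 0.000826). All 3 genes had SB+Dox 3 as the lowest array and, by the choice of genes, no overlap. Prim1, the primase that starts each new strand, fell by 1.01 (adjusted p = 0.00114). Cyclin E2 (Ccne2) fell by 0.93 (adjusted p = 0.0134), lost without SB+Dox 3 (adjusted p = 0.079). Outside the lists the histone chaperone gene Asf1b, the kinase gene Melk and the kinetochore gene Nuf2 were among the 20 most lowered genes, at 2.33-fold, 2.13-fold and 2.13-fold (adjusted p = 0.000561, 0.00122 and 0.00184).

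The cell cycle homology region, TTTGAA on either strand, marks promoters that the DREAM and MuvB complexes are known to repress outside G2/M. It stood in 17 of the 23 lowered mitotic genes with a window, 73.9%, against 15.2% of all windows, 25% of those of lowered genes and 2 of 22 lowered replication genes. CCAAT boxes, common in the same promoters, stood in 19 of the 23 (82.6%), in 14 of the 22 replication genes and in 38.3% of all windows. Kif11 (chr19:37376132-37376431, plus strand, site at position -19) and Top2a (chr11:99024140-99024439, minus strand, sites at -179 and -23) are the most changed mitotic genes that hold TTTGAA, shown here in capitals as TTTGAA or, on the opposite strand, TTCAAA.
Kif11: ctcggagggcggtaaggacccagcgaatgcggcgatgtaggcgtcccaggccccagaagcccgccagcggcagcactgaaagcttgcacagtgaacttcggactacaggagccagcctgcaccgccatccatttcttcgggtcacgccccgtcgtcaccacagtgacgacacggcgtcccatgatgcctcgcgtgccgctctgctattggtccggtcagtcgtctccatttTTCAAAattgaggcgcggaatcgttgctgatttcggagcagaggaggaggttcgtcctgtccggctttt
Top2a: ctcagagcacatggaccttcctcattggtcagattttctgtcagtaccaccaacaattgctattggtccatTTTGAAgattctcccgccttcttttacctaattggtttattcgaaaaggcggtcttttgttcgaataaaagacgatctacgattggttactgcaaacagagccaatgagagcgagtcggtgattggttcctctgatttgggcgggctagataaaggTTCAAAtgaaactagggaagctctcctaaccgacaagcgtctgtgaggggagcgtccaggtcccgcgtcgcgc
These windows too were picked after the changes were seen, and the shares were not tested.

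Genes of cell cycle exit moved both ways, with 2 of 18 higher and 3 lower, or 4 higher with the replicate block. Gadd45a, a growth arrest gene, measured 8.45, 8.70 and 8.95 in SB and 9.93, 9.76 and 10.28 in SB+Dox (log2 change 1.29, SE 0.24, adjusted p = 0.00419). The retinoblastoma gene Rb1, which holds E2F factors silent in myotubes, measured 6.61, 7.01 and 7.56 in SB and 7.88, 8.28 and 8.25 in SB+Dox (log2 change 1.08, SE 0.22, adjusted p = 0.00814), with SB 3 nearest to SB+Dox. Its relative Rbl1, which peaks in cycling cells, measured 6.86, 6.80 and 6.76 in SB and 6.19, 6.20 and 5.90 in SB+Dox (log2 change -0.71, SE 0.12, adjusted p = 0.00256). Gas1, a surface protein of growth arrest and Hedgehog reception, measured 9.55, 9.83 and 9.66 in SB and 8.75, 8.77 and 8.55 in SB+Dox (log2 change -0.99, SE 0.14, adjusted p = 0.000809).

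Matrix genes fell more often than they rose, with 7 of 31 interstitial matrix genes lower and 1 higher. Islr, a leucine-rich repeat protein of mesenchymal cells, measured 7.79, 8.32 and 8.46 in SB and 6.48, 6.53 and 7.0 in SB+Dox and had the largest fall among the called genes (log2 change -1.52, SE 0.19, adjusted p = 0.000354). Versican (Vcan) measured 6.06, 5.91 and 6.76 in SB and 4.91, 5.37 and 5.32 in SB+Dox (log2 change -1.04, SE 0.18, adjusted p = 0.00267). The fibrillar collagen gene Col3a1 measured 10.26, 10.16 and 10.51 in SB and 9.17, 9.24 and 9.63 in SB+Dox (log2 change -0.96, SE 0.14, adjusted p = 0.001), and Col6a1, of the beaded collagen around muscle fibres, 8.06, 8.21 and 8.35 in SB and 7.17, 7.12 and 7.47 in SB+Dox (log2 change -0.96, SE 0.12, adjusted p = 0.000342). In each the SB+Dox arrays lay below the SB arrays. Col6a3 fell by 0.85 (adjusted p = 0.00208). Thrombospondin 1 (Thbs1), which activates latent TGF-beta, was the member that rose, at 6.50, 6.84 and 7.38 in SB and 7.40, 8.77 and 8.61 in SB+Dox. SB+Dox 1 lay beside SB 3, and the call (log2 change 1.35, SE 0.28, adjusted p = 0.00841) was lost without SB+Dox 3 (adjusted p = 0.0523). Col1a1, the main chain of type I collagen, measured 6.78, 6.50 and 7.09 in SB and 6.43, 6.23 and 6.40 in SB+Dox and did not pass (log2 change -0.43, SE 0.27, adjusted p = 0.386). In the list of matrix proteases and their inhibitors 2 of 19 rose and 1 fell, with 4 higher without control 3 and 1 higher without SB 1, SB 2 or any SB+Dox array, or after quantile normalisation. With the replicate block 4 rose and 2 fell, and 2 also fell after quantile normalisation or without Dox 2. Adamts1, an aggrecan-cleaving protease, measured 6.04, 6.31 and 6.25 in SB and 6.96, 7.19 and 7.41 in SB+Dox (log2 change 0.98, SE 0.14, adjusted p = 0.000826). Membrane-type Mmp14 fell by 0.63 (adjusted p = 0.00853).

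Signalling genes gave small counts. In the TGF-beta and BMP list 4 of 30 rose and 1 fell. The count of raised members was 7 without Dox 2 and 2 without SB 2 or SB+Dox 3, and 3 fell after quantile normalisation or without SB 3, 2 without Dox 3 or SB+Dox 1 and 2 with the replicate block. Tgfbr2, the ligand-binding receptor, measured 8.89, 8.77 and 8.98 in SB and 7.79, 7.81 and 7.99 in SB+Dox, with a gap of 0.78 (log2 change -1.02, SE 0.12, adjusted p = 0.000239). Skil, a repressor of SMAD complexes, measured 6.26, 6.27 and 6.52 in SB and 6.97, 7.14 and 7.51 in SB+Dox (log2 change 0.86, SE 0.14, adjusted p = 0.0018), and Ltbp1, which stores latent TGF-beta in the matrix, 7.48, 7.21 and 7.37 in SB and 8.11, 8.12 and 8.26 in SB+Dox (log2 change 0.81, SE 0.10, adjusted p = 0.000342). Tgif1, a corepressor, and Smad7, the inhibitory SMAD, rose 1.57-fold and 1.5-fold (adjusted p = 0.0132 and 0.0139). Tgif1 was lost without SB 1 (adjusted p = 0.0638), SB 2 (adjusted p = 0.0544) or SB+Dox 3 (adjusted p = 0.0825), and Smad7 without SB 2 (adjusted p = 0.0516) or SB+Dox 3 (adjusted p = 0.0866). Of 16 Notch genes the receptors Notch3 and Notch2 fell and 0 rose. Notch3 measured 7.94, 7.94 and 8.13 in SB and 7.21, 7.31 and 7.40 in SB+Dox (log2 change -0.70, SE 0.14, adjusted p = 0.0068), and Notch2 fell by 0.59 (adjusted p = 0.0239), lost without SB 1 (adjusted p = 0.105) or SB+Dox 3 (adjusted p = 0.126). Of 21 Wnt genes 2 fell and 0 rose, or 1 and 2 after centring. Fewer fell without SB+Dox 1 or SB+Dox 2 (1 each) and without SB+Dox 3 (0), and 1 rose without Dox 1, Dox 2 or SB 3 or after quantile normalisation. The agonist gene Rspo3 fell by 0.58 (adjusted p = 0.0167), lost without SB+Dox 2 (adjusted p = 0.0756) or SB+Dox 3 (adjusted p = 0.082).

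In the insulin-like growth factor axis 2 of 19 rose and 2 fell. Leaving out 1 array moved both counts: 1 rose without SB 1, SB 2, SB+Dox 1 or SB+Dox 3, and 1 fell without control 2, any Dox array, SB 3 or SB+Dox 1, or after centring. The count of fallen members was 3 without control 1 or control 3, with the replicate block or after quantile normalisation. Igfbp5, the binding protein secreted by differentiating myoblasts, measured 11.57, 11.69 and 11.84 in SB and 10.88, 10.54 and 11.05 in SB+Dox (log2 change -0.88, SE 0.16, adjusted p = 0.00399), without overlap. Igfbp7 rose 1.38-fold (adjusted p = 0.00772).

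Of 23 p38 pathway genes 4 rose and 0 fell, or 2 without SB 1, SB 2, SB+Dox 1 or SB+Dox 3. Mapkapk5, a kinase downstream of p38, measured 7.41, 7.56 and 7.49 in SB and 8.06, 7.98 and 8.13 in SB+Dox (log2 change 0.57, SE 0.10, adjusted p = 0.00217), and Mknk2, which phosphorylates the translation factor eIF4E, 8.83, 9.06 and 8.94 in SB and 9.39, 9.38 and 9.32 in SB+Dox (log2 change 0.42, SE 0.09, adjusted p = 0.00968). Mapk12 (p38 gamma), an isoform that SB203580 is known not to inhibit, rose 1.37-fold (adjusted p = 0.0331), lost without any 1 of SB 1, SB 2, SB+Dox 1 and SB+Dox 3 (adjusted p = 0.0755 to 0.178). In the ERK feedback list 3 of 13 rose, or 1 without SB+Dox 3, and 0 fell, or 2 after quantile normalisation and 1 without control 3 or Dox 3. The MAP kinase phosphatase gene Dusp4 measured 5.58, 5.71 and 5.81 in SB and 6.11, 6.94 and 6.77 in SB+Dox (log2 change 0.90, SE 0.19, adjusted p = 0.00883), lost without SB+Dox 3 (adjusted p = 0.0513), and the ETS factor Etv5 5.59, 5.39 and 5.91 in SB and 6.32, 6.30 and 6.89 in SB+Dox (log2 change 0.87, SE 0.18, adjusted p = 0.00695).

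Immediate early genes had 5 of 22 higher and 0 lower, a count that was 3 without SB 1 or SB+Dox 2, 1 without SB 2, 0 without SB+Dox 3 and 3 after quantile normalisation. The growth factor-response gene Myc measured 7.23, 7.21 and 7.27 in SB and 8.04, 7.73 and 8.36 in SB+Dox (log2 change 0.81, SE 0.17, adjusted p = 0.00996), without overlap, and was lost without SB+Dox 3 (adjusted p = 0.0618). Of cytokines and chemokines 3 of 24 rose and 2 fell, or 1 fell without SB 1, SB 2, SB+Dox 1 or SB+Dox 3. Ptgs2, the inducible prostaglandin synthase, measured 5.74, 5.61 and 5.71 in SB and 6.89, 6.37 and 7.09 in SB+Dox (log2 change 1.10, SE 0.21, adjusted p = 0.00502), and Tnfaip3, which restrains NF-kB, 6.14, 5.7 and 5.86 in SB and 6.52, 6.73 and 6.61 in SB+Dox (log2 change 0.72, SE 0.14, adjusted p = 0.00692). Both were above their SB arrays on every SB+Dox array. The chemokine receptor gene Cxcr4, which guides migrating myoblasts, measured 7.2, 7.48 and 7.29 in SB and 6.23, 6.14 and 5.78 in SB+Dox, with SB+Dox 3 the lowest (log2 change -1.27, SE 0.17, adjusted p = 0.00065). In the list of guidance and vascular growth factors 2 of 38 rose and 4 fell. Vegfa, the principal angiogenic factor, measured 7.90, 7.90 and 8.08 in SB and 8.85, 8.93 and 9.21 in SB+Dox (log2 change 1.04, SE 0.12, adjusted p = 0.000193), whereas its relative Vegfd, a lymphatic growth factor, measured 7.31, 7.48 and 7.29 in SB and 6.08, 6.06 and 5.99 in SB+Dox (log2 change -1.32, SE 0.14, adjusted p = 9e-05). The semaphorin Sema3b rose 1.9-fold (adjusted p = 0.000249), and the ephrin gene Efnb2 fell by 0.68 (adjusted p = 0.000466).

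Markers of other cells were few among the calls. Of 10 adipocyte, 11 fibroblast and 12 endothelial and blood cell markers 0 passed in limma. At an unadjusted p under 0.05 there were 1 higher adipocyte marker and 2 lower fibroblast markers, and 0 of the endothelial and blood cell list. Without SB 3, 2 fibroblast markers and 1 endothelial or blood cell marker fell, without control 3 1 fibroblast marker fell, and after centring 1 adipocyte marker rose. With the replicate block Pparg, an adipocyte receptor, was called higher (adjusted p = 0.0441) and Pdgfrb, a fibroblast receptor, lower (adjusted p = 0.0499). Of 13 osteoblast and chondrocyte markers 1 rose: Sox9, a cartilage factor, at 7.66, 7.60 and 7.56 in SB and 8.05, 8.17 and 8.19 in SB+Dox (log2 change 0.53, SE 0.12, adjusted p = 0.0125), lost without SB+Dox 3 (adjusted p = 0.0633). Some skeletal muscle markers of the labelled line were at high signal: desmin (Des) measured 11.05, 11.18 and 11.18 in SB and 11.47, 11.44 and 11.44 in SB+Dox, the skeletal actin Acta1 11.08, 11.62 and 11.62 in SB and 12.40, 12.32 and 12.44 in SB+Dox and the receptor subunit Chrna1 10.98, 11.17 and 11.16 in SB and 11.39, 11.35 and 11.45 in SB+Dox. Other skeletal muscle markers, among them Myod1, Myog, Myh3 and Ttn, were dimmer than these in SB, at the values given above. Smooth muscle genes, which C2C12 myoblasts share in part, had 3 of 16 higher and 1 lower, or 2 lower without SB 1, with the replicate block or after quantile normalisation. Transgelin (Tagln) measured 5.69, 6.41 and 7.01 in SB and 7.49, 7.66 and 8.39 in SB+Dox (log2 change 1.48, SE 0.30, adjusted p = 0.0071), and Tpm4 9.69, 9.63 and 9.59 in SB and 9.15, 9.21 and 9.06 in SB+Dox (log2 change -0.50, SE 0.08, adjusted p = 0.00215). Of 19 ribosomal protein genes 0 passed, with 1 higher at an unadjusted p under 0.05, and of 22 genes of the mitochondrial ribosome 2 rose, or 5 after centring, 1 without SB 2 or SB+Dox 2 and 0 without SB 1, SB+Dox 1 or SB+Dox 3. Sterol synthesis had 2 of 19 higher and 1 lower, and interferon response genes 0 higher and 1 of 21 lower. The sterol count was 0 higher without SB 1, SB 2, SB+Dox 2 or SB+Dox 3, 1 higher without control 1, control 2, Dox 1, Dox 2 or SB+Dox 1 or after quantile normalisation, and 0 lower without SB 1, SB 2, SB+Dox 1 or SB+Dox 3 or after centring. The interferon call was lost without SB 1, SB 2, SB+Dox 2 or SB+Dox 3.

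Several of the most changed genes stood in no list. Dhrs9, a short-chain dehydrogenase that oxidises retinol and steroids, measured 5.68, 5.54 and 5.54 in SB and 7.97, 7.54 and 8.47 in SB+Dox, with a span of 0.14 within SB and 0.94 within SB+Dox, and rose 5.31-fold (log2 change 2.41, SE 0.35, adjusted p = 0.000952). The sodium pump subunit gene Atp1b1 measured 5.52, 6.03 and 6.17 in SB and 7.41, 7.89 and 8.05 in SB+Dox and rose 3.68-fold (log2 change 1.88, SE 0.24, adjusted p = 0.000413). Krt80, a type II keratin, measured 7.06, 6.88 and 6.53 in SB and 8.34, 8.78 and 9.03 in SB+Dox and rose 3.72-fold (log2 change 1.89, SE 0.22, adjusted p = 0.000239). The orphan receptor gene Gpr141 measured 2.90, 3.40 and 3.29 in SB and 4.84, 5.10 and 5.69 in SB+Dox (log2 change 2.01, SE 0.35, adjusted p = 0.00307), and Tmem182 6.51, 7.04 and 7.5 in SB and 8.60, 8.55 and 8.93 in SB+Dox (log2 change 1.68, SE 0.20, adjusted p = 0.000318). Adgrg1, an adhesion receptor of muscle hypertrophy, measured 7.39, 7.62 and 7.03 in SB and 9.0, 9.79 and 9.11 in SB+Dox, with SB+Dox 2 the highest. Its call (log2 change 1.95, SE 0.45, adjusted p = 0.0151) was lost without SB 1 (adjusted p = 0.0505) or SB+Dox 2 (adjusted p = 0.0688) and under robust moderation of the variances (adjusted p = 0.0697). Corneodesmosin (Cdsn) measured 6.53, 6.37 and 6.19 in SB and 8.43, 7.78 and 8.47 in SB+Dox (log2 change 1.87, SE 0.40, adjusted p = 0.0105), lost without SB+Dox 3 (adjusted p = 0.0545).

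On the lowered side connexin 43 (Gja1), whose channels couple myoblasts before fusion, measured 8.24, 8.14 and 8.42 in SB and 7.16, 6.92 and 6.99 in SB+Dox (log2 change -1.24, SE 0.13, adjusted p = 0.000102). The engulfment adaptor Gulp1 measured 4.58, 5.0 and 5.56 in SB and 3.67, 3.66 and 4.06 in SB+Dox (log2 change -1.25, SE 0.20, adjusted p = 0.00177), and the actin-binding coronin Coro2b 6.93, 7.08 and 7.32 in SB and 5.91, 5.69 and 5.97 in SB+Dox (log2 change -1.26, SE 0.12, adjusted p = 7.68e-05). None of the 3 overlapped between groups, as their choice required. Clmp, a junctional immunoglobulin protein, measured 6.33, 6.31 and 6.24 in SB and 5.13, 5.38 and 5.13 in SB+Dox, with a gap of 0.86 (log2 change -1.08, SE 0.10, adjusted p = 4.02e-05). The neuronal tubulin Tubb3 measured 7.80, 8.19 and 8.01 in SB and 6.45, 7.01 and 6.61 in SB+Dox (log2 change -1.31, SE 0.28, adjusted p = 0.00953), lost without SB 2 (adjusted p = 0.0505). Pi15, a secreted peptidase inhibitor, measured 4.55, 4.70 and 5.98 in SB and 3.57, 3.57 and 3.85 in SB+Dox. SB 3 lay well above SB 1 and SB 2 there, and the fall was 2.65-fold (log2 change -1.41, SE 0.28, adjusted p = 0.00583).

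**Figure D4:**
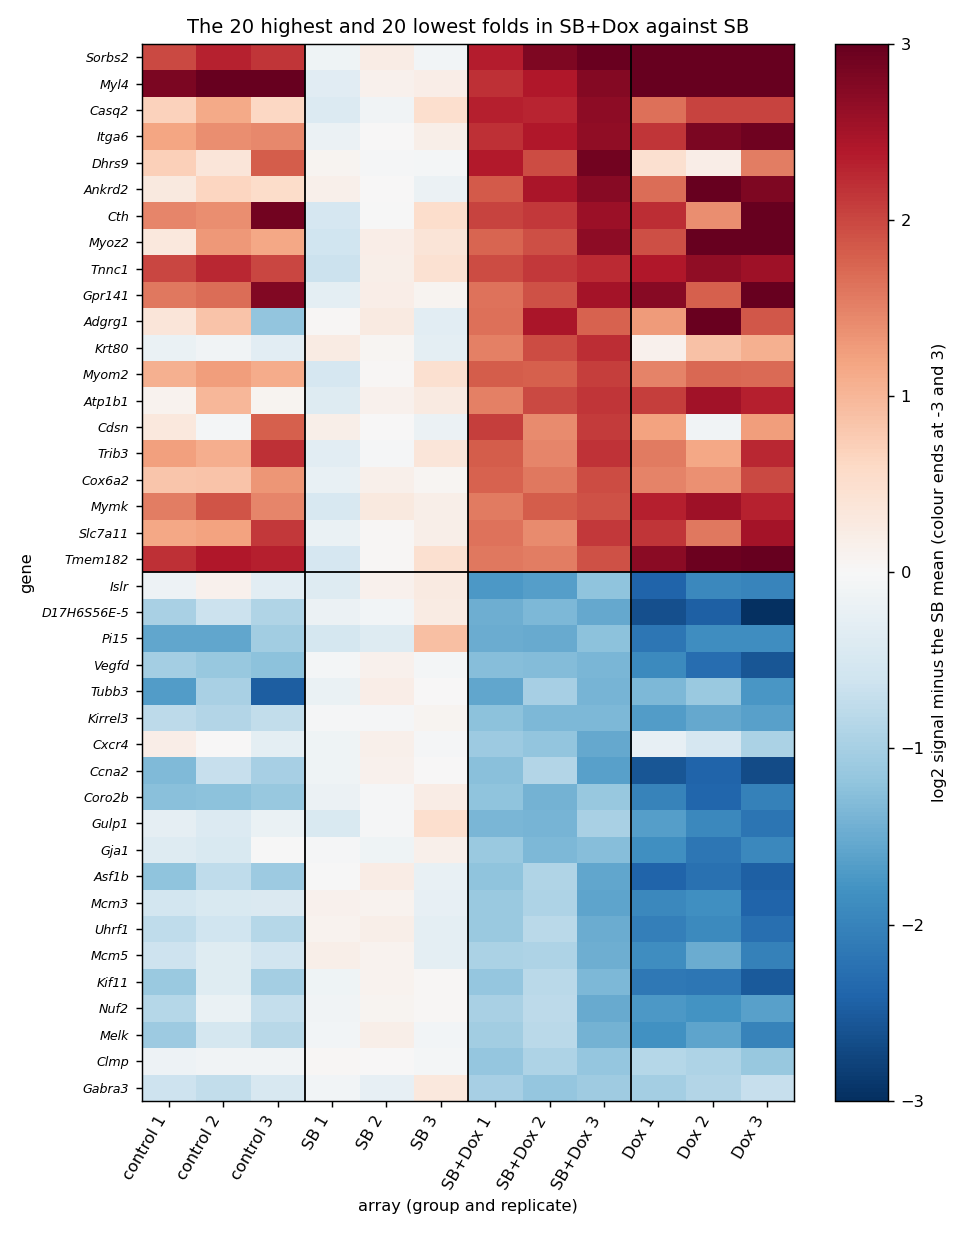
Log2 signal minus the SB mean (colour, ending at -3 and 3) on all 12 arrays (horizontal axis) for the 20 highest and 20 lowest folds in SB+Dox against SB (vertical axis). The SB+Dox columns are red for the upper 20 and blue for the lower 20 by the choice of genes. The choice did not use the Dox arrays, but their colours too are measured from the SB mean, which it did use. The Dox columns are paler than SB+Dox for Cxcr4 and darker for D17H6S56E-5.

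Doxycycline without the inhibitor gave a test on other arrays, since the control and Dox groups share none with SB and SB+Dox. In Dox against control 1156 clusters passed, 5.31%, and by gene 297 rose and 799 fell, 1.49% and 4.01%. Of the 905 genes raised with SB203580 present 114 were raised without it, 12.6% of the 905 and 38.4% of the 297. Of the 561 lowered genes 314 were lowered without it, 56% of the 561 and 39.3% of the 799. Opposite calls were few: 10 genes rose with the inhibitor and fell without it, and 2 did the reverse. Genes raised under SB203580 had a median change of 0.17 without it, and genes lowered under it -0.50. Over all 19938 genes the changes correlated at 0.44, a description across genes of the same cell line and platform. The difference of the 2 effects, the interaction, passed for 195 clusters, 0.895%, with 158 higher and 37 lower, or 50 and 29 after quantile normalisation, 421 in all with the replicate block, and 6 in all (4 higher and 2 lower) when every cluster of the table, named or not, was tested. Leaving out 1 array gave 27 to 352, with 27 without SB 2, 28 without SB+Dox 3 and 352 without SB 3, and each of the 12 such fits moved the count by more than 1.5-fold.

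Mitotic genes fell both with and without the inhibitor. In Dox against control 28 of 29 fell, with a median of -0.90, beside -0.77 in SB+Dox against SB, and the interaction passed for 0 of 29 in limma, with 1 higher at an unadjusted p under 0.05. Ccna2 measured 7.28, 7.92 and 7.62 in control and 6.04, 6.20 and 5.92 in Dox, a change of -1.55 (adjusted p = 0.000135) beside -1.26 under SB203580, with an interaction of 0.30 (SE 0.25, adjusted p = 0.697). In the replication list 24 of 32 fell and 1 rose without the inhibitor. The riser was Rrm2, the regulated subunit of ribonucleotide reductase, singled out after its values were seen. It changed by 0.81 without and -0.79 with SB203580, and the interaction passed (-1.60, adjusted p = 0.00852).

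ATF4 targets rose with the inhibitor present, and in Dox against control 0 of 26 passed in limma, with a median change of 0.17 and 6 higher at an unadjusted p under 0.05. The interaction passed for 8 of 26, all higher with SB203580, against 0.762% of all genes in that direction. For Atf3 the control arrays measured 7.80, 7.59 and 8.08 and the Dox arrays 7.5, 7.19 and 8.19, overlapping, and the interaction was 1.76 (adjusted p = 0.0275), a call lost without any 1 of control 1, control 3, Dox 1, Dox 2, SB 1, SB 2, SB+Dox 1 and SB+Dox 3 (adjusted p up to 0.0866). Chac1, at 8.34, 8.5 and 8.58 in control and 8.65, 8.55 and 8.62 in Dox, had an interaction of 1.30 (adjusted p = 0.00695) that passed in each of the 12 fits that left out 1 array. The other 6 were Slc6a9, Asns, Psat1, Aldh18a1, Slc7a5 and Slc3a2, with interactions of 1.17, 1.03, 1.08, 1.04, 0.99 and 0.82. Slc3a2 was lost without SB 2 or SB+Dox 3 (adjusted p up to 0.0556), and the other 5 without any 1 of 9 or 10 arrays, SB 2 and SB+Dox 3 among them (adjusted p up to 0.13). SB against control, which shares the SB arrays and had 4.06% of all genes lower, had 19 of the 26 lower with a median of -0.87, and SB+Dox against control had 2 higher and 2 lower with a median of 0.29.

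Muscle genes were mixed in this respect. Ankrd2 rose by 2.35 with and 2.12 without SB203580, with 5.82, 6.18 and 6.09 in control and 7.21, 8.90 and 8.33 in Dox, and its interaction was 0.23 (SE 0.44, adjusted p = 0.88). Myoz2 and Atp1b1 rose by 1.77 and 1.91 without it (adjusted p = 0.00575 and 0.000219), beside 2.11 and 1.88 with it. Tnnc1, at 11.14, 11.39 and 11.12 in control and 11.53, 11.78 and 11.67 in Dox, changed by 0.44 without the inhibitor, and its interaction was 1.66 (adjusted p = 0.0194), a call lost without SB 2 or SB+Dox 3 (adjusted p up to 0.0549). Myl4 rose by 0.97 without the inhibitor (adjusted p = 0.00568), and the interaction of 1.48 (adjusted p = 0.024) was lost without any 1 of control 3, SB 1, SB 2 and SB+Dox 3 (adjusted p up to 0.0625). Tmod1, a tropomodulin that caps the pointed end of actin, measured 9.49, 9.49 and 9.55 in SB and 10.10, 10.20 and 10.27 in SB+Dox and rose by 0.68 under the inhibitor (adjusted p = 0.0139), lost without SB 2 (adjusted p = 0.0544) or SB+Dox 3 (adjusted p = 0.0685). Without it Tmod1 measured 9.12, 8.95 and 8.51 in control and 7.60, 8.05 and 7.47 in Dox and fell by 1.15 (adjusted p = 0.000364). Its interaction of 1.83 (adjusted p = 0.00253) passed in each of the 12 fits that left out 1 array, and another cluster of the gene did not rise in SB+Dox (-0.29, adjusted p = 0.163).

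Some genes responded to doxycycline in the absence of SB203580 and did not pass in its presence. R3hdml, a secreted protein gene of the CAP family, measured 5.12, 6.23 and 5.52 in control and 8.54, 9.53 and 8.46 in Dox, beside 5.02, 5.11 and 4.81 in SB and 4.89, 5.09 and 5.39 in SB+Dox. Ctrb1, chymotrypsinogen, measured 7.47, 8.53 and 7.93 in control and 10.20, 10.69 and 10.37 in Dox, beside 5.80, 6.10 and 5.65 in SB and 5.7, 5.95 and 5.68 in SB+Dox. In both the Dox arrays stood above the arrays of every other group. Their interactions were -3.07 and -2.52 (adjusted p = 0.00381 and 0.00253), and those of Adamtsl2, a matrix protein of the ADAMTS family, and the keratinocyte cadherin gene Dsg3 were -2.06 and -1.92 (adjusted p = 0.00673 and 0.0109). All 4 passed in each of the 12 fits that left out 1 array, which reuse the arrays they were picked on. When every cluster of the table was tested, 2 clusters passed downward in the interaction, so not all 4 kept the call. The osteoglycin gene Ogn fell by 1.25 without the inhibitor (adjusted p = 0.00158) and changed by 0.51 with it (adjusted p = 0.161, or 0.00466 without SB 3). Its interaction was 1.76 (adjusted p = 0.0155), lost without SB 2 or SB+Dox 3 (adjusted p up to 0.0556).

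**Figure D5:**
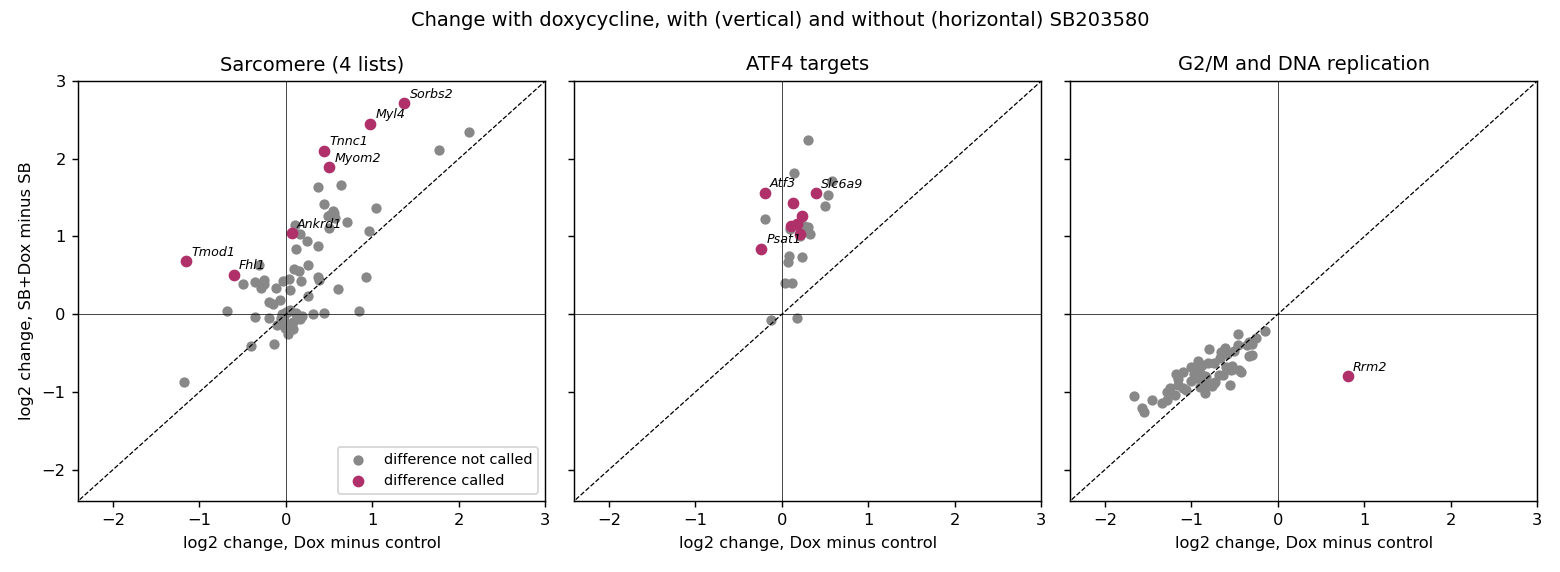
Log2 change in Dox against control (horizontal axis) and in SB+Dox against SB (vertical axis) for the members of the sarcomere lists, the ATF4 targets and the cell cycle lists, with the dashed line at equal change and dark points where the interaction passed. ATF4 targets lie in a vertical band with medians of 0.17 and 1.13, cell cycle genes along the line, and Rrm2 off it at 0.81 and -0.79.

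Levels in SB+Dox were also set beside the control group. These comparisons share arrays with SB+Dox against SB, so only the values stand side by side. Genes named here were picked by values on some of the same arrays, so no p against control is given for them. Calls were made for 6.38% of clusters and 6.65% of genes in SB against control, with 2.59% of genes higher and 4.06% lower, and for 5.26% of clusters and 5.41% of genes in SB+Dox against control, with 2.88% higher and 2.53% lower. Mitotic genes had a median change of -0.12 in SB+Dox against control, with 0 of 29 called in limma and 1 lower at an unadjusted p under 0.05, and 24 of 29 were higher in SB against control. Replication genes had a median of -0.30 in SB+Dox against control, with 0 of 32 called higher and 7 lower in limma. At an unadjusted p under 0.05, 15 of them were lower, and 8 were called higher in SB against control. Tnnc1 measured 11.14, 11.39 and 11.12 in control beside 11.08, 11.24 and 11.36 in SB+Dox (change 0.01, SE 0.20), and Mymk 10.78, 11.13 and 10.73 beside 10.81, 11.07 and 11.17 (change 0.14, SE 0.18). Casq2, at 7.95, 8.39 and 7.88 in control, was above control by 3.07-fold in SB+Dox, and Itga6 and Krt80 stood 2.11-fold and 4.27-fold higher. All 3 were picked for high signal on these SB+Dox arrays.

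Other genes low in SB stayed below control in SB+Dox. Tenascin C (Tnc) measured 10.44, 10.75 and 10.16 in control and 7.73, 7.35 and 8.11 in SB and 7.33, 7.94 and 7.95 in SB+Dox. It changed by 0.01 with doxycycline (SE 0.21, adjusted p = 0.982) and by -2.71 against control. Thbs1 measured 10.64, 11.07 and 10.83 in control and, although it rose with doxycycline, remained 6.01-fold lower than control. Its call in SB+Dox against SB was lost without SB+Dox 3 (adjusted p = 0.0523). Col1a1 was 7.55-fold and Vcan 6.78-fold lower than control. Among genes high in SB, the p38 activator gene Map2k6 measured 7.21, 7.30 and 7.71 in SB and 7.52, 7.44 and 7.32 in SB+Dox, a change of 0.02 (SE 0.12, adjusted p = 0.938), and the GDNF receptor gene Gfra1 fell from 9.20, 9.26 and 9.29 to 8.25, 8.49 and 8.27 (log2 change -0.92, SE 0.15, adjusted p = 0.00177). The inositol phosphatase gene Inpp5j, raised in SB, rose further, at 6.78, 6.86 and 6.52 in SB and 7.47, 7.65 and 7.34 in SB+Dox beside 5.45, 5.35 and 4.98 in control (log2 change 0.77, SE 0.15, adjusted p = 0.00692). Tnc, Map2k6, Gfra1 and Inpp5j were picked at the ends of SB against control, on the same SB arrays. Their p values in SB+Dox against SB are not free of that choice, which favours a change back towards control.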

How the data were processed

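RNA of 12 samples was read on Affymetrix mouse gene arrays, 1 array each. The authors deposited 1 table of log2 signals for 35557 transcript clusters, made by RMA in Affymetrix Expression Console, per the submitters' processing notes. Versions are not given in the sources used here. These values were used without further scaling.

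Clusters were named through the platform annotation, with symbols updated by Entrez identifier for 21698 of the 21789 with 1 symbol. A further 1621 had several symbols and 12147 none, and neither entered the tests. In R 4.3.3, limma 3.58.1 fitted 1 mean per group over all 12 arrays, with eBayes (8 residual and 6.56 prior degrees of freedom) and Benjamini-Hochberg adjustment over 21789 clusters. A gene is represented by its cluster with the highest mean. On simulated data for SB+Dox against SB the fit recovered 66% of 1.5-fold and 90% of 2-fold changes, with 16 false calls among 21589 unchanged clusters.

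The members and gene lists were chosen with earlier results of these data known. Genes named are Myog and related factors, the 20 highest and lowest folds among called genes without overlap, and up to 5 called members of each list in each direction. Added to these are 8 or 10 genes at each end of the other comparisons, and those said to be chosen after their values were seen. The labels do not say whether same-numbered arrays were paired, and the main fit treated them as unpaired. Deviations of same-numbered SB and SB+Dox arrays from their group means correlated at 0.44, 0.19 and 0.49, and differently numbered ones at -0.42 to 0.07. Same-numbered control and Dox arrays gave 0.01, 0.18 and 0.39, and control 1 with Dox 2 gave 0.24. Deviations from a mean of 3 arrays constrain each other, so these values cannot settle the pairing. Alternatives were the replicate block, other scalings, filters on dim clusters, trended and robust variances, array weights, all clusters, a minimum fold and leaving out each array. Promoter windows and coordinates are RefSeq's, build GRCm38.p6.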

Additional observations from a re-analysis of the deposited data

Results flagged for a closer look

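The response to doxycycline differed with and without SB203580 for 195 clusters by the interaction test of limma, or 6 when every cluster of the table was tested, and each value here is the log2 change in SB+Dox against SB minus that in Dox against control, so a positive value means a more positive change under the inhibitor. None of these differences is explained here. Among the genes given here 7 kept the call in each of the 12 fits that left out 1 array: Tmod1 at 1.83, Tmem74 at 1.66, R3hdml at -3.07, Ctrb1 at -2.52, Adamtsl2 at -2.06, Dsg3 at -1.92 and Serpinb9e at -1.81. So did Chac1 at 1.30, Rrm2 at -1.60 and the muscle glycogen phosphorylase gene Pygm at 1.56, all 3 chosen after their values were seen. With only 6 clusters called when every cluster of the table was tested, not all of these genes kept the call there. Serpinb9e, a serine protease inhibitor gene, measured 3.93, 4.59 and 4.11 in control, 6.01, 6.59 and 5.73 in Dox and 3.99, 3.86 and 4.09 in SB and 3.82, 4.08 and 4.32 in SB+Dox. Tmem74, an autophagy protein gene, measured 4.33, 4.26 and 4.74 in control, 4.0, 3.80 and 4.43 in Dox and 3.78, 3.89 and 3.99 in SB and 5.16, 4.95 and 5.45 in SB+Dox.

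Dhrs9 gave the most positive value, 2.64, with 6.30, 5.95 and 7.41 in control and 6.06, 5.80 and 7.12 in Dox, and was lost without any 1 of control 1, Dox 1, Dox 2, SB 1, SB 2, SB+Dox 1 and SB+Dox 3 (adjusted p up to 0.0855). Of other genes raised under the inhibitor, Sorbs2 differed by 1.35, Myl4 by 1.48, Casq2 by 1.35, Tnnc1 by 1.66, Myom2 by 1.39, Cox6a2 by 1.16, Fhl1 by 1.12, Jph2 by 1.05, Slc6a9 by 1.17, Atf3 by 1.76, Mknk2 by 0.65 and Etv5 by 1.14. Without SB 2 and without SB+Dox 3, Tnnc1 was lost. The calls of Sorbs2, Cox6a2 and Mknk2 were lost in 10 of the 12 fits that left out 1 array, those of Casq2 and Etv5 in 11, Jph2 and Slc6a9 in 9, Atf3 in 8, Myom2 in 7, Myl4 in 4 and Fhl1 in 3.

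Other genes had a more negative doxycycline change without the inhibitor. Ogn differed by 1.76, the proteoglycan gene Aspn by 1.80, Col1a1 by 1.78, the axon guidance gene Sema3c by 1.59, the carbonic anhydrase gene Car2 by 1.67 and Gas1 by 0.92. Aspn measured 6.29, 5.99 and 5.76 in control, 4.21, 3.90 and 3.50 in Dox and 4.27, 4.39 and 4.76 in SB and 3.98, 3.72 and 4.67 in SB+Dox. The calls of Ogn and Sema3c were lost without SB 2 and without SB+Dox 3, those of Aspn and Car2 in 5 of the 12 fits, Col1a1 in 9 and Gas1 in 10. In the interstitial matrix list, which holds Ogn and Col1a1, the interaction passed for 2 of 31 upward and 1 downward (Col11a1, at -0.95), against 0.762% and 0.176% of all genes.

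The annexin gene Anxa8 differed by -2.79, with 5.30, 6.45 and 6.92 in control, 8.71, 8.57 and 9.55 in Dox and 4.36, 4.67 and 4.19 in SB and 4.41, 4.43 and 4.18 in SB+Dox. The calcium channel regulator Rrad differed by -1.95 and the serotonin receptor gene Htr2b by -1.75. Anxa8 was lost without SB 2 and without SB+Dox 3, Rrad in 3 of the 12 fits and Htr2b in 5.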

How the results depend on the processing

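The replicate number as a block gave 1972 clusters in SB+Dox against SB and 421 in the interaction. Among the 197 named genes the block ended the call of Tcf4 and brought in 6, Myod1, Slc40a1, Dcn, Abcd2, Pparg and Pdgfrb, and changed no other call. With only the 6 SB and SB+Dox arrays and the block, 2753 clusters passed. Estimated array weights gave 3076 clusters in SB+Dox against SB, 1831 in Dox against control, 678 in the interaction, 2794 in SB against control and 1935 in SB+Dox against control. A minimum of 1.5-fold gave 725, 669, 683 and 569 in those comparisons other than the interaction, in that order. Testing every cluster of the table gave 6 in the interaction, 876 in SB against control and 696 in SB+Dox against control. The interaction count was 79 after quantile normalisation and 301 without clusters dimmer than the 50th percentile. Leaving out 1 array gave 724 to 2521 clusters in SB+Dox against SB, 744 to 1305 in Dox against control, 27 to 352 in the interaction, 779 to 1644 in SB against control and 644 to 1351 in SB+Dox against control. No named gene changed sign in SB+Dox against SB while called. Of the 166 called named genes 105 passed in each of the 12 fits that left out 1 array, testing every cluster of the table ended 53 calls, the minimum fold 38, a fit of only the 6 SB and SB+Dox arrays 24, median centring 10, quantile normalisation 9 and robust variances 4, and centring moved the median change of all genes from -0.05 to 0.02. Causes were not tested. Precision is limited by 3 arrays in a group.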

Other observations

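Regulators around the myogenic factors had few calls in SB+Dox against SB. Of 16 bHLH inhibitors and repressors 1 rose and 0 fell, or 2 and 2 without SB 3. The riser was Bhlhe40, a hypoxia- and clock-responsive repressor, at 6.72, 6.61 and 7.03 in SB and 7.63, 7.71 and 8.08 in SB+Dox (log2 change 1.02, SE 0.14, adjusted p = 0.000661), with no overlap between the groups. Of 15 genes of the sine oculis, Eya and Tead families 1 rose (2 with the replicate block), the TEAD factor gene Tead4 at 6.66, 7.01 and 6.94 in SB and 7.14, 7.93 and 7.61 in SB+Dox (log2 change 0.69, SE 0.17, adjusted p = 0.0243), lost without SB 1 (adjusted p = 0.112), SB+Dox 2 (adjusted p = 0.11) or SB+Dox 3 (adjusted p = 0.0954). Of 18 satellite and reserve cell genes 1 rose and 0 fell (2 and 1 without SB 3, and 1 fell without control 2, control 3 or Dox 3 or after quantile normalisation), the membrane protein gene Itm2a at 5.28, 5.24 and 5.86 in SB and 6.03, 5.77 and 6.32 in SB+Dox (log2 change 0.59, SE 0.16, adjusted p = 0.0377), lost without any 1 of control 1, Dox 1, SB 1, SB 2, SB+Dox 1 and SB+Dox 3 (adjusted p = 0.0508 to 0.198).

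C1qtnf3, an adipokine gene, was among the genes called higher both with and without SB203580. It measured 7.10, 7.85 and 7.14 in control, 9.43, 10.09 and 10.00 in Dox and 5.14, 5.19 and 5.88 in SB and 6.07, 6.86 and 7.19 in SB+Dox. The change under the inhibitor (log2 change 1.30, SE 0.28, adjusted p = 0.0105) was lost without SB 1 (adjusted p = 0.0561), SB 2 (adjusted p = 0.0562) or SB+Dox 3 (adjusted p = 0.0647). Slc40a1, the iron exporter ferroportin, measured 8.84, 8.72 and 9.52 in control and 5.93, 6.37 and 6.98 in SB and 7.41, 7.03 and 7.84 in SB+Dox, a change with doxycycline that passed with the replicate block (adjusted p = 0.00344) and not without it (adjusted p = 0.0685). Decorin (Dcn), a matrix proteoglycan gene high in SB, did likewise (adjusted p = 0.00509 with the block and 0.0826 without), at 8.69, 8.89 and 9.59 in SB and 7.81, 7.65 and 8.55 in SB+Dox. Slc40a1 and Dcn were picked at the ends of SB against control, on the same SB arrays, so these p values are not free of that choice.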
